A study of Mus musculus with 6 samples.

Results

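The genes described here set the pace of the G1 phase of the cell cycle and carry the response to the tumour suppressor p53. They comprise 43 named genes, all of which were found on the arrays, among 17331 genes with a symbol and 41938 entries tested in all. The members were taken by symbol, by matching the transcript accession of each probe set to RefSeq, and cyclin E2 (Ccne2) alone had 2 probe sets. Expression was measured in MC3T3-E1, a preosteoblast line from mouse calvaria that lays down mineralizing matrix when given osteogenic supplements. The differentiated group (3 arrays) had been kept for 15 days with 10 mM glycerol-2-phosphate and 50 ug/mL ascorbic acid added to the medium. The undifferentiated group (3 arrays) had neither supplement. All 6 cultures were of passage 5 to 12, grew with 10% serum, and had ethanol, the vehicle of a vitamin D treatment, for 24 h before RNA was taken. MC3T3-E1 is a single established line, the triplicates were biological per the labels, and the supplements and the time in culture cannot be told apart from differentiation in these groups.

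In G1, D-type cyclins with Cdk4 or Cdk6 and then E-type cyclins with Cdk2 phosphorylate the retinoblastoma family of pocket proteins, which frees E2F factors to switch on genes of DNA replication. The INK4 proteins block Cdk4 and Cdk6, and the CIP/KIP proteins p21 and p27 bind cyclin-CDK complexes more widely. The transcription factor p53, held down by Mdm2 and Mdm4, induces p21 and a set of genes for growth arrest, repair and cell death, and cells of the osteoblast lineage leave the cycle as they mature.

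Values are log2 intensities, on which a step of 1 is a doubling, after the 6 arrays were quantile normalized together. Random-sequence control probes read 6.69 to 6.80 on this scale, and a level near them is background. All members stood above that level on at least 1 array, though the death genes Bbc3 and Pmaip1 lay at it. As a check of the cells, the osteoblast markers Alpl and Dmp1 rose by 3.02 and 2.96 on the log2 scale and 6 of 11 osteoblast markers rose. Runx2 and Col1a1 were present at 12.48 and 15.86 log2 intensity in differentiated cells, against 12.46 and 15.81 in undifferentiated cells. Undifferentiated replicate 3 deviated most from its group (root mean square 0.208, against 0.0820 to 0.154 for the other arrays). The image names carry 2 stamps, each of which covered a single group. What the stamps stand for is not given in the labels used here. If they mark batches, batch and group cannot be told apart.

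Among the 43 genes, 4 rose and 12 fell in differentiated cells, and 27 did not pass (limma, adjusted p under 0.05 over all 41938 entries). Over all entries 7.97% were called higher and 9.04% lower, and over genes with a symbol 8.67% and 8.16%. The members' shares were 9.30% higher and 27.9% lower. The higher share lay near the background, and the lower share was above it, for a list drawn up with earlier results of these data known. The median log2 fold change of the members was -0.16, against 0.01 for all genes with a symbol. Fewer cycling cells and less of an mRNA per cell cannot be told apart in these cultures.

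**Figure D1:**
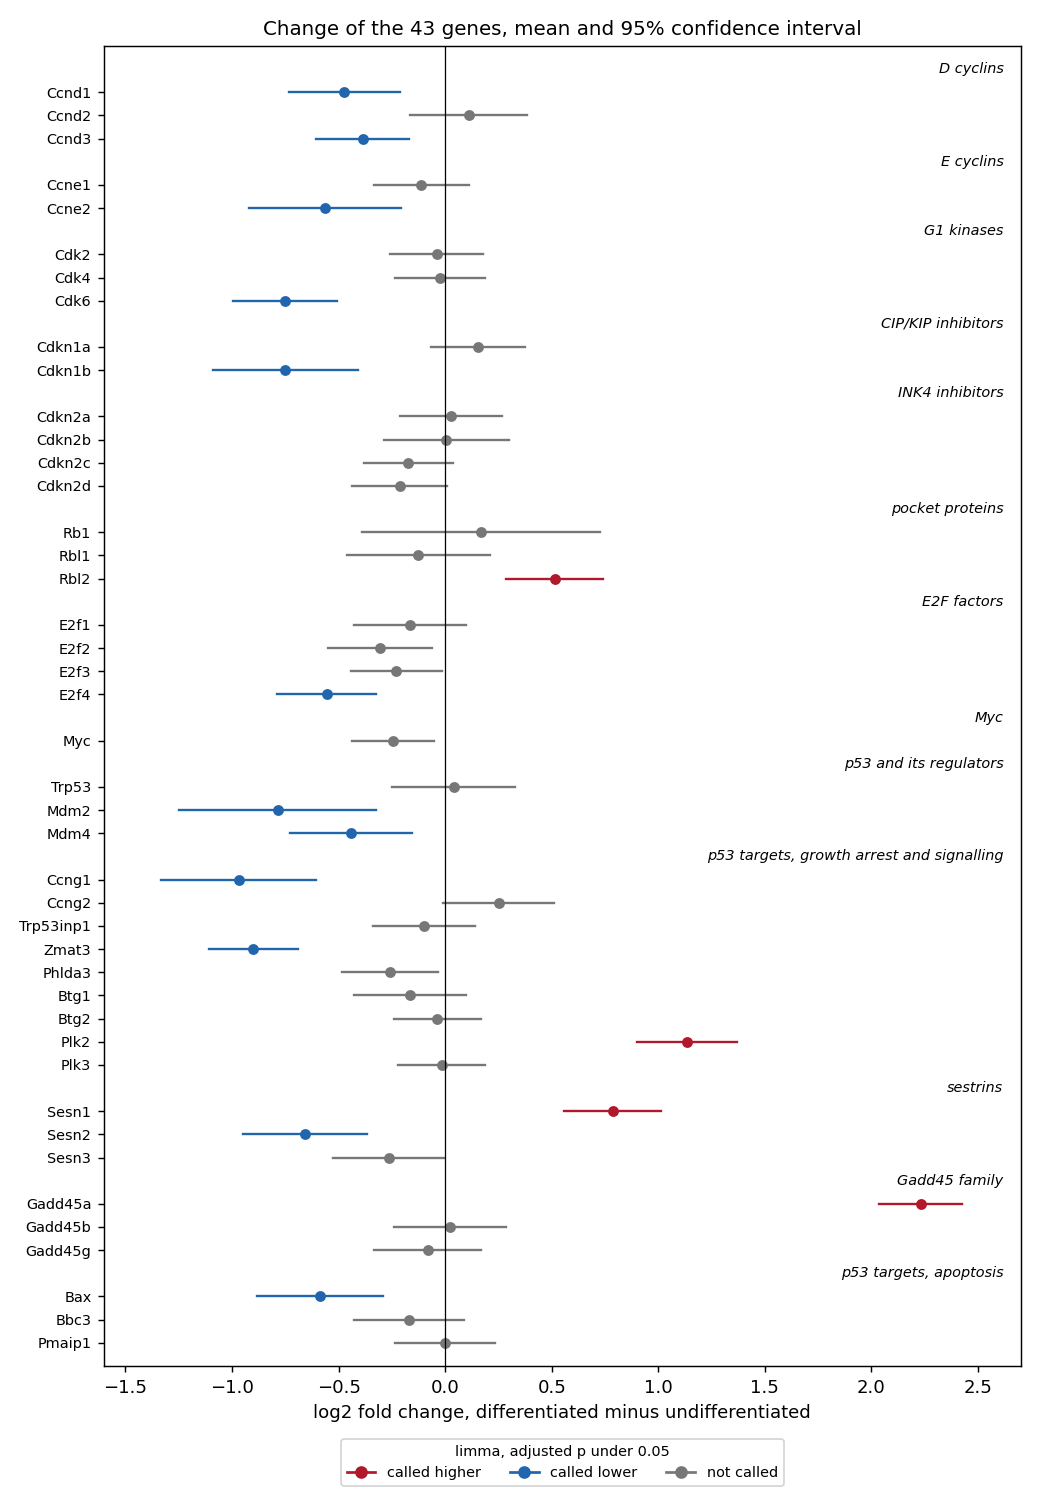
Log2 fold change (differentiated minus undifferentiated, x axis) of each of the 43 genes with its 95% confidence interval, grouped by role; red points were called higher, blue points lower and grey points not called. Bbc3 and Pmaip1 lie at the level of the random probes. Gadd45a stands alone at 2.23, and the blue points lie between -0.39 and -0.97.

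The arrays of the groups stood apart for many of the genes. In 19 of the 43 genes all differentiated arrays lay below all undifferentiated arrays, and in 5 they lay above. These are 44.2% and 11.6% of the members, against 16.6% and 18.2% of genes with a symbol. Of the 16 called genes, 2 changed by at least 2-fold, Gadd45a and Plk2, both higher.

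Promoter windows of the members were read to set their letters beside their response, and sites outside the windows were not searched. The windows are RefSeq's on GRCm38.p6, from 250 bases before to 50 bases after the annotated start, and 34 of the members had 1 or more (44 windows). Each was searched on both strands for the p53 half-site consensus, for a full p53 site of 20 bases with up to 1 mismatch, for the RUNX motif TGTGGT, and for the E2F motifs TTTCCCGC and TTTGGCGC. A full site contains the letters of its half-sites, so these 2 searches overlap. The windows below are those of the largest rise, of the 2 largest falls among called genes with a single window, and of Cdkn1a, whose upstream window holds a full site. Capitals mark motif matches, 5′ to 3′ on the strand of the gene.
Gadd45a, chr6:67037358-67037657, minus strand: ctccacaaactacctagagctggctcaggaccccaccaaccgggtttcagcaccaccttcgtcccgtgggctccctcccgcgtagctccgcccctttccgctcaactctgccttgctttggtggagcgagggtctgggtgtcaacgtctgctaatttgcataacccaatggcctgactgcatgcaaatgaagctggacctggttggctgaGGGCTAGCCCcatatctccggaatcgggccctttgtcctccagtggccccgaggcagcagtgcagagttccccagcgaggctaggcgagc
Ccng1, chr11:40755237-40755536, minus strand: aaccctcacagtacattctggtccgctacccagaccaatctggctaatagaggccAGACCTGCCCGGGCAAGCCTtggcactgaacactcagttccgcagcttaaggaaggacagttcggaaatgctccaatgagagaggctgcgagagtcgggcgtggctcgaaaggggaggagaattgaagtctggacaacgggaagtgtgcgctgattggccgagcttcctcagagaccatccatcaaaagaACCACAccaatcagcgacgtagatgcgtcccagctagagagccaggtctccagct
Mdm2, chr10:117710709-117711008, minus strand: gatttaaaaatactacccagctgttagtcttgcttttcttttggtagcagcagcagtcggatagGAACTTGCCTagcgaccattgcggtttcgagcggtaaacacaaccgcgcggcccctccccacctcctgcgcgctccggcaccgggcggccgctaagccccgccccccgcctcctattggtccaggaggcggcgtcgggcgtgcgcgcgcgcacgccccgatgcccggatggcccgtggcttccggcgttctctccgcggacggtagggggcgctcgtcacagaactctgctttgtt
Cdkn1a, chr17:29090729-29091028, plus strand: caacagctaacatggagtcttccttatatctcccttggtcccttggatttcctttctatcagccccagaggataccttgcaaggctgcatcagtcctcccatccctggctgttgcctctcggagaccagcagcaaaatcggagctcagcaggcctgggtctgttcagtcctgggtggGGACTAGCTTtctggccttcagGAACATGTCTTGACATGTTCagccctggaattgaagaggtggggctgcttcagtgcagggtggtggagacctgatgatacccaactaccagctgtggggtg

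In the Ccng1 window the capitals are the full p53 site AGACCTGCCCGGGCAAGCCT, which begins at position -195 relative to the start, and a RUNX match on the opposite strand at position -5. In the upstream window of Cdkn1a they are the full site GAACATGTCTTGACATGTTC, which begins at position -51 relative to the upstream start, and a further half-site. The downstream window of Cdkn1a held 0 matches in either p53 search. Gadd45a and Mdm2 each show a half-site, GGGCTAGCCC and GAACTTGCCT. The full site was found in 0.0883% of all 32851 windows and in 4.55% of member windows, that of Ccng1 and the upstream window of Cdkn1a. Of these 2 genes, Ccng1 fell and Cdkn1a did not pass, and the difference between them was not tested. Half-sites were held by 18.2% of member windows and 8.36% of all windows. The 8 genes with a half-site were Gadd45a and Sesn1, which rose, Bax, Ccng1 and Mdm2, which fell, and Cdkn1a, Cdkn2d and Trp53, which did not pass. RUNX matches stood in 9.09% of member windows and 16.8% of all windows, in Ccng1, Mdm4, Cdk4 and Sesn3. E2F matches stood in 9.09% of member windows and 1.56% of all windows, in Cdk2, Cdkn2a, E2f2 and E2f3, and 0 of these 4 genes were called. The median GC content was 64.3% in member windows and 52.7% in all windows, and its part in these shares was not tested. The list was put together from p53 targets and genes of the E2F pathway, so higher shares of p53 and E2F motifs are no independent result. No window was read for Ccnd1, Ccnd2, Ccne2, E2f4, Myc, Pmaip1, Rb1, Trp53inp1 and Zmat3.

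Of the D cyclins, which couple growth signals to the cycle, Ccnd1 and Ccnd3 fell and Ccnd2 did not pass. Ccnd1 read 13.30, 13.27 and 13.20 in differentiated replicates 1, 2 and 3, against 13.52, 13.77 and 13.90 in undifferentiated replicates 1, 2 and 3. Every differentiated array lay below every undifferentiated array, and the fall was 1.39-fold (log2 fold change -0.47 ± 0.11 SE, adjusted p = 0.0245). Ccnd3 read 11.02, 11.11 and 10.93 in differentiated cells, against 11.31, 11.43 and 11.48 in undifferentiated cells, again without overlap. It fell 1.31-fold (-0.39 ± 0.10 SE, adjusted p = 0.0264). Ccnd2 read 13.70, 13.56 and 13.35 in differentiated cells, against 13.41, 13.31 and 13.56 in undifferentiated cells, so its groups overlapped (log2 fold change 0.11, 95% confidence interval -0.16 to 0.38). The calls of Ccnd1 and Ccnd3 failed when any of the differentiated arrays or undifferentiated replicate 2 was left out, with adjusted p up to 0.0951 and 0.0889. That of Ccnd3 was also lost with the deposited values (0.0534).

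Of the E cyclins, which act later in G1 with Cdk2, Ccne2 fell and Ccne1 did not pass. Ccne2 read 7.92, 8.35 and 8.27 in differentiated cells, against 8.77, 8.49 and 8.97 in undifferentiated cells, a fall of 1.48-fold (-0.56 ± 0.16 SE, adjusted p = 0.0397). Its second probe set, tested with every probe set on its own, read 7.59, 7.86 and 7.90 in differentiated cells, against 8.01, 8.20 and 8.80 in undifferentiated cells. That change was of like size (-0.55 ± 0.19 SE) and did not pass (adjusted p = 0.0882). The call of the first was lost without any array but undifferentiated replicate 2 (adjusted p up to 0.129) and with cyclic loess (0.0525). Ccne1 had a log2 fold change of -0.11 (-0.33 to 0.11), with 11.73 ± 0.08 in differentiated and 11.84 ± 0.10 in undifferentiated cells (mean ± SD, n = 3 each).

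Of the G1 kinases, Cdk6 fell while Cdk4 and Cdk2 did not pass. Cdk6 read 10.59, 10.34 and 10.63 in differentiated cells, against 11.32, 11.19 and 11.32 in undifferentiated cells. It fell 1.69-fold (-0.75 ± 0.11 SE, adjusted p = 0.00218), and the call held without each array in turn (adjusted p up to 0.0149). Cdk4 averaged 14.70 ± 0.04 in differentiated cells and 14.72 ± 0.10 in undifferentiated cells, a log2 fold change of -0.02 (-0.23 to 0.19). Cdk2 averaged 12.45 ± 0.11 in differentiated and 12.49 ± 0.05 in undifferentiated cells (-0.04, -0.26 to 0.18). The intervals of Cdk4 and Cdk2 did not reach the change of Cdk6.

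The inhibitors gave no rise that passed. The p21 gene Cdkn1a, the main mediator of G1 arrest by p53, read 14.25, 14.35 and 14.12 in differentiated cells, against 14.01, 14.12 and 14.12 in undifferentiated cells. The groups touched at their ends, and the log2 fold change was 0.16 (-0.07 to 0.38, adjusted p = 0.332). With array weights it passed as higher (0.28, adjusted p = 0.0183). The p27 gene Cdkn1b, whose protein holds Cdk2 inactive in resting cells, fell 1.68-fold (-0.75 ± 0.15 SE, adjusted p = 0.0105). It read 8.93, 8.53 and 8.90 in differentiated cells, against 9.29, 9.71 and 9.62 in undifferentiated cells, with no overlap. Without differentiated replicate 2 its adjusted p was 0.0503.

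None of the 4 INK4 genes passed in the fit described here. Cdkn2c averaged 12.77 ± 0.03 in differentiated and 12.94 ± 0.09 in undifferentiated cells, and Cdkn2d 9.95 ± 0.10 in differentiated and 10.16 ± 0.09 in undifferentiated cells. In both genes the differentiated arrays all lay lower, by 0.17 and 0.21 in the mean, and both passed as lower with array weights (adjusted p = 0.0238 and 0.0174). Cdkn2a and Cdkn2b overlapped between the groups, at log2 fold changes of 0.03 (-0.21 to 0.27) and 0.01 (-0.29 to 0.30). Cdkn2a encodes 2 unrelated products from overlapping transcripts, and whether its probe set tells them apart was not tested.

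Among the pocket proteins, Rbl2, which encodes p130 and forms repressor complexes with E2F4 in resting cells, rose. It read 11.70, 11.87 and 11.78 in differentiated cells, against 11.20, 11.22 and 11.39 in undifferentiated cells. The rise was 1.43-fold (log2 fold change 0.51 ± 0.10 SE, adjusted p = 0.00939), and its adjusted p was 0.0619 without differentiated replicate 2. Rb1, which encodes the retinoblastoma protein, read 8.31, 8.75 and 9.01 in differentiated cells, against 8.28, 8.23 and 9.06 in undifferentiated cells, a spread within each group larger than the difference of 0.17 (-0.39 to 0.73). Rbl1, which encodes p107, averaged 7.90 ± 0.22 in differentiated and 8.03 ± 0.22 in undifferentiated cells (-0.13, -0.46 to 0.21).

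All 4 E2F genes among the members had negative changes, and E2f4, the main repressor E2F of resting cells, passed. E2f4 read 10.51, 10.38 and 10.67 in differentiated cells, against 11.11, 11.02 and 11.10 in undifferentiated cells, a fall of 1.47-fold (-0.55 ± 0.10 SE, adjusted p = 0.00756). The call held without each array, with adjusted p up to 0.0497. E2f2 and E2f3, activators of S phase genes, lay lower on every differentiated array without passing (-0.31 and -0.23, adjusted p = 0.0873 and 0.137). E2f2 did pass as lower with array weights (0.0291) and with a replicate block by file names (0.0437). E2f1, a further activator, had a log2 fold change of -0.17 (-0.43 to 0.10). Myc, which drives growth and G1 entry, read 13.18, 13.22 and 13.17 in differentiated cells, against 13.46, 13.40 and 13.46 in undifferentiated cells. Those groups were tight and apart, but the difference of -0.25 (-0.44 to -0.05) gave an adjusted p of 0.0831. It passed with trend and robust settings of eBayes (0.0363) and with array weights (0.0246).

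**Figure D2:**
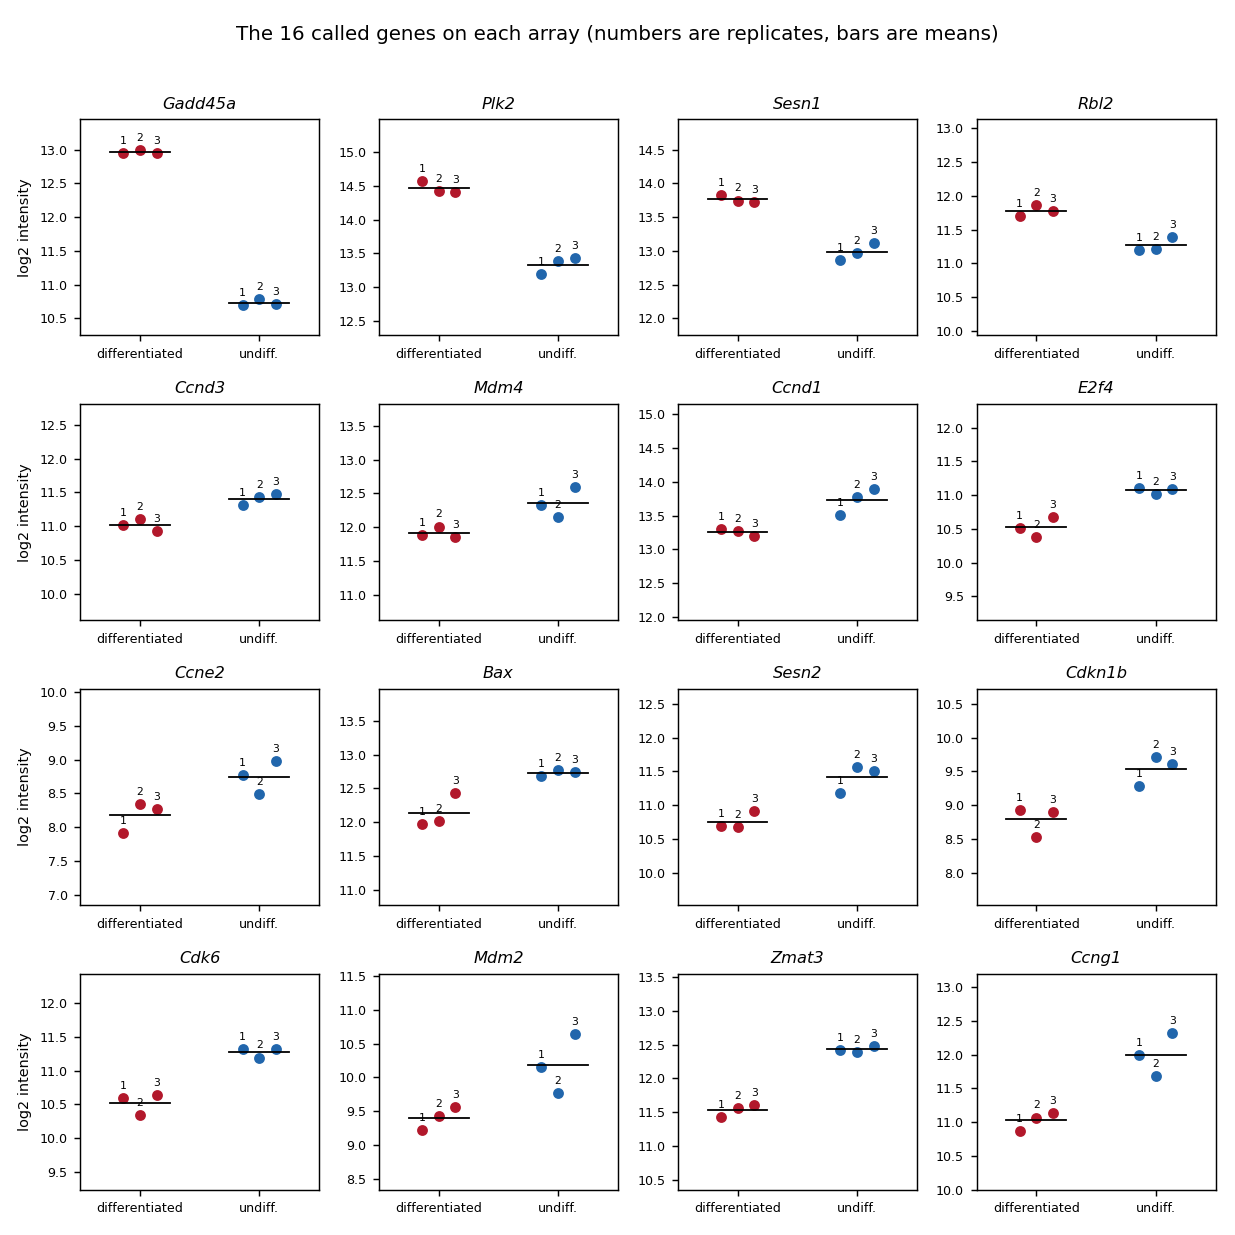
Log2 intensity (y axis, the same span in each panel) of the 16 called genes on the 3 differentiated arrays (red, left) and the 3 undifferentiated arrays (blue, right); numbers are replicates and bars are group means. The groups do not overlap in any panel, and undifferentiated replicate 3 is the highest blue point in 10 of the 16 panels.

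The p53 gene itself did not pass, while both of its partners in negative control fell. Trp53 read 13.23, 13.33 and 13.32 in differentiated cells, against 13.01, 13.28 and 13.48 in undifferentiated cells, a log2 fold change of 0.04 (-0.25 to 0.33). Mdm2, a ubiquitin ligase for p53 whose gene p53 also induces, read 9.22, 9.42 and 9.56 in differentiated cells, against 10.16, 9.76 and 10.64 in undifferentiated cells. It fell 1.72-fold (-0.79 ± 0.20 SE, adjusted p = 0.0313). The undifferentiated arrays spread widely, with replicate 2 lowest and replicate 3 highest, and the 95% confidence interval of the change ran over -1.25 to -0.32. Mdm4, a relative of Mdm2 without strong ligase activity, read 11.89, 12.01 and 11.85 in differentiated cells, against 12.33, 12.15 and 12.59 in undifferentiated cells, and fell 1.36-fold (adjusted p = 0.0435). Both calls failed when undifferentiated replicate 1 or any of the differentiated arrays was left out, with adjusted p up to 0.111 for Mdm2 and 0.125 for Mdm4, and with cyclic loess (0.0514 and 0.0564). That of Mdm4 was also lost with the deposited values (0.0757) and without undifferentiated replicate 3 (0.0532).

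The growth-arrest and signalling targets of p53 went in both directions. Ccng1, which encodes cyclin G1, a feedback regulator of Mdm2, read 10.87, 11.07 and 11.14 in differentiated cells, against 11.99, 11.68 and 12.32 in undifferentiated cells. It fell 1.96-fold (-0.97 ± 0.16 SE, adjusted p = 0.00453). Zmat3, an RNA-binding zinc finger protein gene, read 11.42, 11.57 and 11.60 in differentiated cells, against 12.43, 12.39 and 12.48 in undifferentiated cells. Its groups were narrow and far apart, a fall of 1.87-fold (-0.90 ± 0.09 SE, adjusted p = 0.000403). Plk2, a polo-like kinase gene of centriole duplication, read 14.58, 14.42 and 14.42 in differentiated cells, against 13.19, 13.38 and 13.43 in undifferentiated cells, and rose 2.20-fold (1.14 ± 0.10 SE, adjusted p = 0.000199). These 3 calls held without each array, with adjusted p up to 0.0240 for Ccng1, 0.00437 for Zmat3 and 0.00232 for Plk2.

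The other 6 genes of that role did not pass. The Akt inhibitor gene Phlda3 averaged 12.04 ± 0.05 in differentiated and 12.30 ± 0.13 in undifferentiated cells (-0.26, -0.48 to -0.03). It passed as lower without undifferentiated replicate 3 (adjusted p = 0.0435) and with array weights (0.00291). Ccng2, a cyclin of resting cells, was higher on every differentiated array, at 10.29 ± 0.11 in differentiated and 10.04 ± 0.17 in undifferentiated cells (0.25, -0.01 to 0.51). The antiproliferative genes Btg1 and Btg2 had log2 fold changes of -0.16 (-0.43 to 0.10) and -0.04 (-0.24 to 0.17). Trp53inp1, a stress-induced nuclear protein gene, had a change of -0.10 (-0.34 to 0.14), and Plk3, a stress-responsive polo-like kinase gene, a change of -0.02 (-0.22 to 0.19). The groups of these last 4 genes overlapped.

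The sestrins, stress proteins that restrain mTORC1, moved apart. Sesn1 read 13.83, 13.75 and 13.72 in differentiated cells, against 12.86, 12.96 and 13.12 in undifferentiated cells, and rose 1.73-fold (0.79 ± 0.10 SE, adjusted p = 0.00121). Sesn2 read 10.69, 10.67 and 10.91 in differentiated cells, against 11.17, 11.56 and 11.51 in undifferentiated cells, and fell 1.58-fold (-0.66 ± 0.13 SE, adjusted p = 0.00943). Neither gene's groups overlapped, and the adjusted p of Sesn2 was 0.0557 without differentiated replicate 2. Sesn3 read 14.05, 13.67 and 13.89 in differentiated cells, against 14.11, 14.20 and 14.09 in undifferentiated cells, lower on each differentiated array without passing (-0.27, -0.53 to -0.0046, adjusted p = 0.159), and it passed as lower with array weights (0.00538).

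Of the Gadd45 genes, which encode small stress sensors that activate a MAP kinase cascade, Gadd45a rose. It read 12.94, 13.00 and 12.95 in differentiated cells, against 10.69, 10.79 and 10.72 in undifferentiated cells. The rise was 4.70-fold (log2 fold change 2.23 ± 0.09 SE, adjusted p = 2.17e-06), many times the spread within either group, and its adjusted p was at most 7.58e-05 without any 1 array. Gadd45b averaged 12.35 ± 0.13 in differentiated and 12.33 ± 0.15 in undifferentiated cells (0.02, -0.24 to 0.28). Gadd45g averaged 10.17 ± 0.09 in differentiated and 10.25 ± 0.16 in undifferentiated cells (-0.08, -0.33 to 0.17). Both of these genes lay well above the random probes on every array, and their groups overlapped.

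Of the apoptosis genes, Bax, which encodes a pore-forming protein of the mitochondrial membrane, fell. It read 11.98, 12.02 and 12.43 in differentiated cells, against 12.68, 12.77 and 12.74 in undifferentiated cells, with differentiated replicate 3 nearest to the undifferentiated arrays. The fall was 1.50-fold (-0.59 ± 0.13 SE, adjusted p = 0.0167), and the call was lost without differentiated replicate 1 or 2 or undifferentiated replicate 2 (adjusted p up to 0.0873). Bbc3 (Puma), a trigger of Bax and its relatives, averaged 6.52 ± 0.09 in differentiated and 6.69 ± 0.18 in undifferentiated cells, at or below the random probes on all 3 differentiated and 2 undifferentiated arrays. Pmaip1 (Noxa), an inhibitor of Mcl1, averaged 6.80 ± 0.12 in differentiated and 6.80 ± 0.10 in undifferentiated cells. Values at the level of the random probes have no order, so the differences of these 2 genes are not read as changes.

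Related genes were then set against each other within each array, over 31 pairs in 13 families, since 2 separate tests do not show that 2 genes differ in response. In 16 pairs the within-array difference separated the groups completely, which gives the smallest p an exact two-sided permutation test can reach with 3 against 3 arrays (p = 0.10, adjusted over the 31 pairs 0.194). No pair could therefore pass. No share was taken over other gene pairs, and among single genes with a symbol 18.2% lay apart as higher and 16.6% as lower. The pairs include called genes such as Gadd45a, Plk2, Sesn1 and Ccng1, whose own groups did not overlap. The count of 16 is thus not independent of the single-gene calls. The change of Gadd45a minus Gadd45b was 2.21 on the log2 scale and that of Sesn1 minus Sesn2 1.45. Plk2 minus Plk3 differed by 1.15, and Cdkn1a minus Cdkn1b by 0.91, each higher in differentiated cells. The change of Rbl1 minus Rbl2 was -0.64. The change of Cdk6 minus Cdk4 was -0.73, that of Ccng1 minus Ccng2 -1.22 and that of Ccnd1 minus Ccnd2 -0.58. The difference between Ccnd1 and Ccnd3 overlapped between the groups (-0.08, exact p = 0.40), and so did that between Mdm2 and Mdm4 (-0.34, exact p = 0.20).

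Other genes of these pathways were counted from lists of their own. Their counts stand beside 8.67% of genes with a symbol called higher and 8.16% called lower. Whether a list differs from these shares was not tested. Of 21 further regulators of G1 and of entry into S phase, 2 rose and 3 fell. Mxi1, a Myc antagonist, rose by 0.63 and E2f6, a repressor E2F, by 0.56. Cks1b, a CDK-binding protein needed to degrade p27, fell by 0.85 on the log2 scale, and the repressor genes E2f8 and E2f7 fell by 0.67 and 0.48. Of 7 genes listed for the DREAM repressor complex and for other complexes of its MuvB core, 1 fell, the mitotic activator gene Foxm1 (-0.71 ± 0.19 SE, adjusted p = 0.0335). Of 21 E2F targets of S phase entry, among them Ccne1, Ccne2 and E2f1, 5 fell and 0 rose. Beside Ccne2 the largest falls among the called genes of the list were those of Cdt1 (-0.70) and the helicase gene Mcm3 (-0.46).

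Of 25 further p53 targets, 6 fell and 2 rose, with a median log2 fold change of -0.14. Among genes with a symbol 8.16% were called lower and 8.67% higher. Psrc1, a spindle protein gene, fell by 1.40, Eda2r, a TNF receptor family gene, by 1.17, and the death receptor gene Fas by 1.14 on the log2 scale. The damage recognition gene Ddb2 rose by 0.54 and the death agonist gene Bid by 0.35. The mean deviation of this list from its mean over the 6 arrays was -0.19, -0.10 and -0.04 in differentiated replicates 1, 2 and 3, against 0.06, 0.04 and 0.23 in undifferentiated replicates 1, 2 and 3. Undifferentiated replicate 3 was the highest array for this list. It was also the highest of its group for 10 of the 16 called genes, which were Ccnd1, Ccnd3, Ccne2, Rbl2, Mdm2, Mdm4, Ccng1, Zmat3, Plk2 and Sesn1. This array deviated most from its group over all entries, and the share of all genes for which it was highest was not taken.

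Proliferation markers were lower in differentiated cells. Of 18 such genes, most of them for mitosis, 15 fell and 0 rose, with a median log2 fold change of -0.73. Their mean deviation was -0.51, -0.43 and -0.06 in differentiated replicates 1, 2 and 3, against 0.33, 0.34 and 0.33 in undifferentiated cells. That of the E2F targets was -0.24, -0.12 and 0.0011 in differentiated cells, against 0.07, 0.08 and 0.22 in undifferentiated cells. Differentiated replicate 3 stood nearest to the undifferentiated arrays in both lists, as it did for Bax, Cdk6, E2f4, Mdm2, Zmat3, Ccng1 and Sesn2, which is 7 of the 12 genes called lower. For Ccnd1, Ccnd3 and Mdm4 it was instead the lowest array. The count of 7 was not set beside a share over all genes. The part of proliferation, and of the shift of single arrays, in the changes of the 43 genes was not tested.

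**Figure D3:**
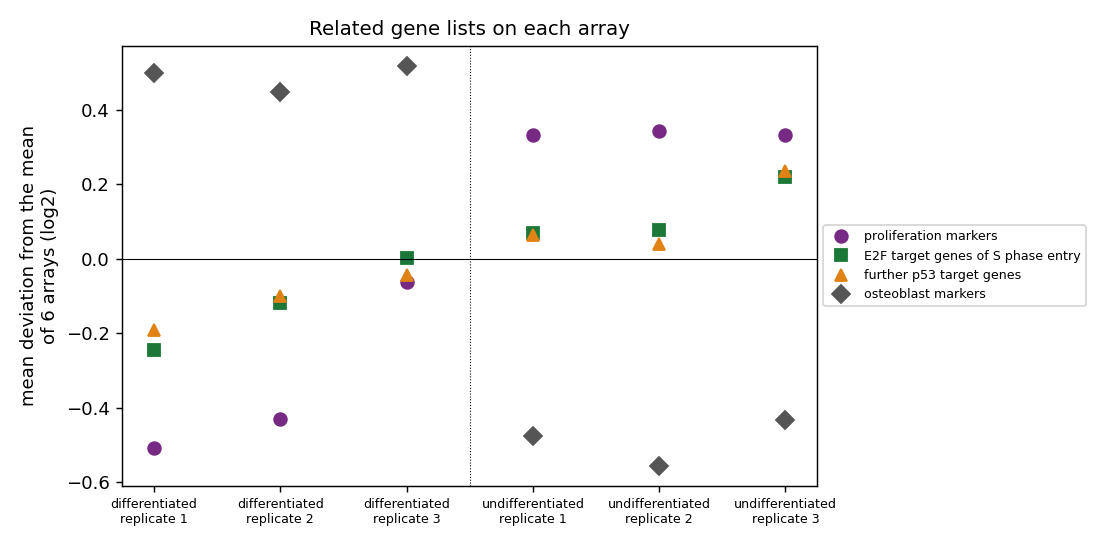
Mean deviation (log2, y axis) of 4 gene lists from their own mean over the 6 arrays, on each array (x axis). Proliferation markers lie at -0.51 and -0.43 in differentiated replicates 1 and 2, at -0.06 in replicate 3 and at 0.33 to 0.34 in the undifferentiated arrays.

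Of 23 measured markers of other lineages 17.4% were called, against 17.0% of all entries. Of 6 adipocyte, 6 chondrocyte, 5 muscle and 6 blood or endothelial genes, 0, 1, 1 and 1 rose and 1, 0, 0 and 0 fell. The mean level of these lists in differentiated arrays ran over 7.79 to 7.84, 9.25 to 9.37, 9.22 to 9.44 and 8.19 to 8.25, against 7.84 to 7.99, 9.27 to 9.30, 9.05 to 9.22 and 8.06 to 8.15 in undifferentiated arrays. Those that rose were the cartilage matrix gene Comp (0.64 on the log2 scale), the muscle filament gene Des (0.42) and the endothelial adhesion gene Pecam1 (0.47), and the adipokine gene Adipoq fell by 0.42. Sox9, a chondrocyte factor, read 12.25 in differentiated and 12.19 in undifferentiated cells. Of these 23 markers only the endothelial cadherin gene Cdh5 was at or below the random probes on all 6 arrays. The cartilage collagen gene Col2a1 read 6.90 in differentiated and 6.78 in undifferentiated cells. The muscle gene Ckm and the cartilage gene Acan read 11.20 and 9.83 in differentiated cells, against 11.04 and 9.72 in undifferentiated cells. The part of these cell types in the results was not tested.

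Calls that held without each array in turn numbered 7 of the 16. They were Gadd45a, Plk2 and Sesn1, which rose, and Zmat3, Ccng1, Cdk6 and E2f4, which fell. The other 9 calls were lost without at least 1 array, and the 12 genes called lower came to 6, 4 and 7 without differentiated replicates 1, 2 and 3. Of all entries 10.2%, 7.49% and 12.6% were called in either direction in these settings, against 17.0% with all 6 arrays. The 4 genes called higher came to 3 without differentiated replicate 2.

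**Figure D4:**
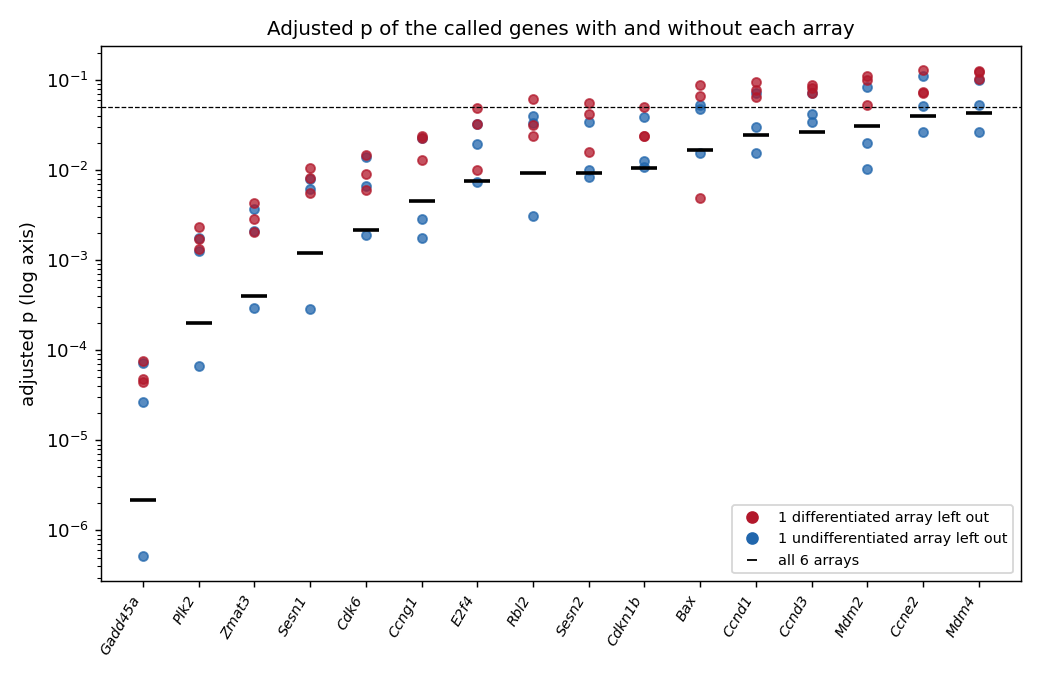
Adjusted p (log axis) of the 16 called genes with all 6 arrays (black bars) and with each differentiated (red) or undifferentiated (blue) array left out; the dashed line is 0.05. Every point of Gadd45a, Plk2, Zmat3, Sesn1, Cdk6, Ccng1 and E2f4 lies under the line, and at least 1 point of each of the other 9 genes lies above it.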

How the data were processed

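Total RNA from 6 cultures was hybridised to single-colour NimbleGen arrays. The authors' deposited values are intensities on a linear scale made with RMA, per the submitters' processing notes; its version is not given in the sources used here. In the deposited series table the columns of differentiated replicates 1 and 2 hold each other's array file. Replicates are numbered here by sample title, with values from the array file of that sample. The numbers in the file names do not all match the titles. After log2, sorted values of a pair of arrays differed by a median of up to 0.135, over the limit of 0.02, so arrays were quantile normalized together. Accessions named 17849 of 42586 probe sets, and names 130. The brightest probe set stood for a gene, and the control line was left out. The test was that of limma 3.58.1, run in R 4.3.3 (lmFit, eBayes, two-sided, no covariate, Benjamini-Hochberg over 41938 entries). All members were reported. Of the other lists, up to 3 called genes per direction were named by largest change. Members and lists were chosen with earlier results of these data known. The scripts were tested on simulated data. Alternatives are given with the limits. Counting depth does not apply, and 3 arrays a group limit precision.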

Additional observations from a re-analysis of the deposited data

How the results depend on the processing

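The 4 higher and 12 lower calls, and the 17.0% of all entries called in either direction, were recomputed under each alternative. Array weights, which gave differentiated replicate 2 a weight of 11.1 against 0.240 to 1.42 for the others, moved them to 7, 19 and 37.8%. Those called in addition were Cdkn1a, Rb1 and Ccng2 as higher and Cdkn2c, Cdkn2d, E2f2, Myc, Phlda3, Btg1 and Sesn3 as lower. At an adjusted p under 0.01 they were 4, 5 and 7.59%. Without each array in turn they ran over 3 to 4, 4 to 11 and 7.49% to 22.4%. With the deposited values, cyclic loess, every probe set on its own, an offset of 50, trend and robust settings, and a filter at the 25th percentile (which dropped 3 members), 4 were higher and 9 to 13 lower. In that order the lower calls numbered 10, 9, 12, 12, 13 and 12. Of the entries tested in each, 14.1%, 15.9%, 17.1%, 17.2%, 18.4% and 21.5% were called. Replicate numbers were not taken as pairs in the main fit. Deviations of same-numbered arrays correlated at 0.334, -0.145 and 0.459 by title, and at -0.0101, 0.428 and 0.459 by file name. Whether the numbers pair the samples was not settled by these values. With a replicate block by titles 4 were higher and 12 lower, and 21.4% of all entries were called. With a replicate block by file names these were 4, 13 and 25.0%, the gene gained being E2f2 (adjusted p = 0.0437).

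No called gene changed direction. Signs turned, with no call, in 11 genes and in Pmaip1, whose sign has no meaning at the level of the random probes. With array weights the log2 fold changes became 0.0217 for Cdk2, -0.0777 for Cdkn2a, -0.0589 for Cdkn2b, 0.0914 for Rbl1, 0.0013 for Trp53inp1, 0.0107 for Btg2, 0.0721 for Gadd45g and -0.13 for Pmaip1. With cyclic loess they were 0.0057 for Cdk4 and -0.0003 for Pmaip1, and with the deposited values 0.0005 for Plk3 and -0.0068 for Gadd45b. Without each array in turn the ranges were -0.0734 to 0.0244 for Cdk2, -0.0577 to 0.0303 for Cdk4, -0.0235 to 0.11 for Cdkn2a, -0.10 to 0.12 for Cdkn2b, -0.20 to 0.0018 for Rbl1, -0.0826 to 0.15 for Trp53, -0.0739 to 0.0069 for Btg2, -0.0533 to 0.0081 for Plk3, -0.0602 to 0.10 for Gadd45b and -0.0682 to 0.0536 for Pmaip1. The cause of these changes was not tested.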
